A study of Mus musculus with 12 samples.

Results

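Stretches of the mouse liver genome that H3K9me3 peaks covered in the newborn but not in the adult were collected from ChIP-seq peak lists. They were chosen by the peak positions themselves: an autosomal base was taken when a peak covered it in all 4 neonatal lists (control and Alb-D2KO at postnatal days 1 and 5, P1 and P5) and in neither adult list, and runs of at least 500 bp were kept. This gave 34529 neonatal-only regions with a total length of 33.4 Mb, or 1.36% of the 19 autosomes. Bases covered in at least 1 of the 6 lists formed 230455 merged intervals of 500 bp or longer with a total length of 925 Mb, from which the regions are pieces, so that several can lie in 1 interval. Since the same lists chose the regions, their presence in neonatal and absence from adult lists is a description and not a result, and nothing below is tested.

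The mice were C57BL/6 by the labels, and C57BL/6J by the study's methods. In Alb-D2KO animals a floxed Dio2 gene had been deleted by Cre recombinase driven by the albumin promoter, so that the deletion is limited to cells that use this promoter, mainly hepatocytes, and the sample names of the controls read Cre, so that Cre is shared by both genotypes. Each of the 6 combinations of genotype and age (P1, P5, adult) had 1 H3K9me3 library and 1 input library in the labels, and a P1 or P5 library came from a pool of 3 livers while adult livers were processed one by one. With 1 library in each group there is no spread between replicates. Chromatin of the whole liver was used, so a mark carried by fewer cells of a type and less of the mark in each cell cannot be told apart.

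H3K9me3, trimethylation of lysine 9 on histone H3, is the mark of constitutive heterochromatin. It is placed by methyltransferases such as Setdb1 and the Suv39h enzymes, is bound by HP1 proteins, and keeps satellite repeats, transposon remnants and many clustered gene families silent. The liver changes after birth from an organ that makes blood cells to one run by hepatocytes, which only then switch on many genes for detoxification, bile acid handling and secreted carrier proteins. D2, the enzyme encoded by Dio2, makes the active thyroid hormone T3 in the newborn liver.

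The reference sequence of 6 regions is printed here, 3 from the regions with the highest peak scores and 3 from regions that lie over the start of a gene, to show the repeat arrays and the gene family clusters that the text below returns to. Each is the middle 300 bases of its region on the plus strand of mm10 (RefSeq GRCm38.p6), in lower case with every CG pair, the site of DNA methylation, in capitals. The first by rank without an annotated exon in its middle was taken, 1 for each chromosome or gene family. The first lies in a region at chr9:3036296-3037155 beside the centromere, and its sequence repeats itself. Over the whole region, 82.1% of bases matched the base 234 positions further on, which is the unit length of the mouse major satellite.
chr9:3036576-3036875: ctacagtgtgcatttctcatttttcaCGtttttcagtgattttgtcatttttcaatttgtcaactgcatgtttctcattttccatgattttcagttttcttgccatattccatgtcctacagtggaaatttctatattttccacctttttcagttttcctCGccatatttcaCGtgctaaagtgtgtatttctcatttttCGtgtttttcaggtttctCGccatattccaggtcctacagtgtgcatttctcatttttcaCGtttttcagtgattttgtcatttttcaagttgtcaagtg
chr15:75085787-75086086: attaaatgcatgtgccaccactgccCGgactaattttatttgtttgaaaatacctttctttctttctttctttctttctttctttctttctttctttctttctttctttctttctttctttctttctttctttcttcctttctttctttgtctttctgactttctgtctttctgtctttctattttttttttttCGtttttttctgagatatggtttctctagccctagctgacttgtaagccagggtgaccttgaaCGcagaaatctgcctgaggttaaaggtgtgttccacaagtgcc
chr10:3116455-3116754: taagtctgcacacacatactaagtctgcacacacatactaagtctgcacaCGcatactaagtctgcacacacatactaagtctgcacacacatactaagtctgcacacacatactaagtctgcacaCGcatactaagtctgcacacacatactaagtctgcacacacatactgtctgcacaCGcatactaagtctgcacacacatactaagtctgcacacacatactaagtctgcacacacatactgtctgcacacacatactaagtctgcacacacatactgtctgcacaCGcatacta
The chr15 stretch holds a long run of the same few letters and 3 CG pairs. The chr10 stretch is a short tandem repeat, and 79.9% of the bases of its region matched the base 74 positions further on. The gene-start regions look different, with little repeat-masked sequence (16.3% to 21.0% of the printed bases) and 0 to 2 CG pairs in 300 bases.
Vmn2r70 start region, chr7:85568309-85568608: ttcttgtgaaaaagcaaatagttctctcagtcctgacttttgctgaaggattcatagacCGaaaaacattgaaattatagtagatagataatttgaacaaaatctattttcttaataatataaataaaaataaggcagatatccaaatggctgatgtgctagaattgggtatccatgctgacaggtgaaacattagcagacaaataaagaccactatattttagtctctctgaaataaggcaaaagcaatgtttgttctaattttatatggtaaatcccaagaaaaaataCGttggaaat
Olfr1289 start region, chr2:111481901-111482200: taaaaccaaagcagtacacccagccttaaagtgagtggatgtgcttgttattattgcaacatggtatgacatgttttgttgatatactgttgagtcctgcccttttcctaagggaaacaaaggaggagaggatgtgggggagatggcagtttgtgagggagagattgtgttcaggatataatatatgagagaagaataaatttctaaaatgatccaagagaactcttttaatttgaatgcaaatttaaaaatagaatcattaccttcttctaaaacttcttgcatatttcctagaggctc
Mup15 start region, chr4:61439839-61440138: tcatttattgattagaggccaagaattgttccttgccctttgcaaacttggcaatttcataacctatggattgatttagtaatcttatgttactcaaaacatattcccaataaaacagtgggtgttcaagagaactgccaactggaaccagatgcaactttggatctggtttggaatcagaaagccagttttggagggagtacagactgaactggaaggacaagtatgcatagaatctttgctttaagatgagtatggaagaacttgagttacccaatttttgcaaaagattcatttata
Vmn2r70 encodes a pheromone receptor of the vomeronasal organ, Olfr1289 an odorant receptor of the nose, and Mup15 a major urinary protein, a pheromone carrier secreted by the adult liver.

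The lists from which the regions came were similar in size. On the autosomes the neonatal lists held 235187 to 247677 peaks that covered 18.7% to 20.2% of the bases, and the adult lists 270434 and 275607 peaks that covered 15.5% and 16.1%. The lists hold no read counts, so that the depth of the libraries is unknown. The lowest pileup (mean fragment coverage of a peak) was 4 in every neonatal list and 5 in both adult lists, and the share of peaks with a −log10 p above 2, the limit the study used for its comparison of genotypes, was 5.29% to 6.81% in the neonatal and 12.3% and 12.5% in the adult lists. The part of these differences in what counts as absent from the adult was not tested.

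The regions are what was left of a larger shared neonatal territory. All 4 neonatal lists covered 173 Mb together. Of these bases 38.5% were covered in both adult lists, 17.7% in the control adult list alone, 17.1% in the Alb-D2KO adult list alone and 26.7% in neither, and the runs of 500 bp or longer held 19.4%. In the reverse direction, 16437 regions (16.6 Mb) were covered in both adult lists and no neonatal list, and 35874 regions (56.5 Mb) were covered in all 6 lists. These are called adult-only and all-six regions, and they serve as the comparison throughout.

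Most neonatal-only regions were pieces of long neonatal peaks rather than islands. Their median length was 820 bp (quartiles 644 and 1115 bp), 1485 were at least 2 kb long, and 15 at least 5 kb. The peaks that held them were longer, with a median width of 5.37 kb in control P1, 6.09 kb in Alb-D2KO P1, 5.79 kb in control P5 and 5.96 kb in Alb-D2KO P5, where the median peak of each list was 0.962 to 1.05 kb. A long peak is more likely to hold a region and was counted for each region it held. The list median counts every peak once, and no list median of width weighted by bases was taken. An adult peak lay directly against 25741 regions (74.5%, 95% Wilson interval 74.09 to 75.01), on both sides of 10213 of them, and within 1 kb of 93.7%. Only 66 regions were over 10 kb from every adult peak and 8 over 50 kb. Wilson intervals here and below cover counting error only, and neighbouring regions are not independent. For adult-only regions, 62.5% lay against a neonatal peak and 2.09% were over 10 kb from one.

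The surroundings of the regions are described from the same lists that chose the regions, so that a difference between the ages there is no separate result. At 10 kb to the right of the middle of a region, 69.3% of positions were covered in the control P1 list, 71.1% in Alb-D2KO P1, 69.9% in control P5 and 70.8% in Alb-D2KO P5. The same positions were covered in 34.4% of cases in the control adult and in 32.9% in the Alb-D2KO adult list. Over the autosomes as a whole the shares were 18.7%, 19.2%, 19.8%, 20.2%, 16.1% and 15.5% in the same order, so that both neonatal and adult peaks were denser around the regions. Neighbouring regions were a median of 6.57 kb apart, so that a position 10 kb away can lie in another region. The surroundings of all-six and adult-only regions were not measured.

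**Figure D1:**
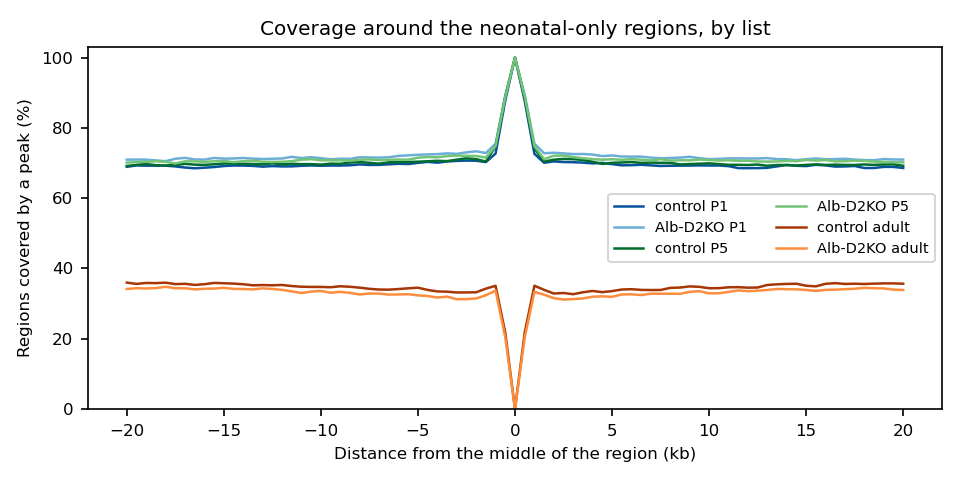
Share of neonatal-only regions covered by a peak (%, y axis) at distances of up to 20 kb from the middle of the region (x axis, kb), with a line for each of the 6 lists. The values of 100% and 0% at the middle are set by the way the regions were chosen, which bears on the values around it as well. Away from the middle the 4 neonatal lines run near 70% and both adult lines near 34%.

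The 3 regions farthest from adult peaks lay in introns. They were a region of 1312 bp in Spats2 (chr15:99158330-99159641), 307860 bp from the nearest adult peak, one of 1036 bp at Gstz1 and Gm6566 (chr12:87152256-87153291), at 303253 bp, and one of 1148 bp in Zfp609 (chr9:65710023-65711170), at 230900 bp. Gstz1 encodes an enzyme of tyrosine breakdown. The −log10 p of the holding peak in Spats2 was 1.47 in control P1, 1.59 in Alb-D2KO P1, 1.59 in control P5 and 1.92 in Alb-D2KO P5, below the limit of 2 in every list.

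Peak scores were low for nearly all regions. The median −log10 p of the holding peak was 1.73 in control P1, 1.74 in Alb-D2KO P1, 1.69 in control P5 and 1.71 in Alb-D2KO P5, against list medians of 1.512, 1.504, 1.455 and 1.472 over peaks. Long peaks are more likely to hold a region, and with each peak weighted by its bases the list medians were 1.669, 1.669, 1.623 and 1.642, close to those of the regions. The median fold enrichment over input was 1.94, 1.95, 1.91 and 1.92 in the same order. In 24828 regions (71.9%) no holding peak passed 2, in 434 regions (1.26%) all 4 did, and in 72 all 4 passed 3. Very few regions lay in a peak with a q-value below 0.05. They numbered 77 in control P1, 83 in Alb-D2KO P1, 77 in control P5 and 68 in Alb-D2KO P5, of 34529. The share of all peaks below this limit was not counted. These scores are means over the whole holding peak and not over the region.

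The regions with the highest scores lay near the centromeric ends of chromosomes 9, 10 and 11, except for 1 on chromosome 15. Ranked by the lowest −log10 p of the 4 lists, the first 4 were between chr9:3011082 and chr9:3037155, in the long noncoding gene Gm26870. Of these, 2 also overlapped the predicted coding gene Gm10717, and chr9:3036296-3037155 covered the start of another, Gm10715. Each of them matched itself best at a shift of 234 bp (67.4% to 82.1% of bases) and was 93.6% to 97.1% repeat-masked. The holding peak of chr9:3036296-3037155 had a −log10 p of 640 in control P1, 755 in Alb-D2KO P1, 807 in control P5 and 699 in Alb-D2KO P5. Its pileup was 3329, 3447, 3757 and 3333, and its fold enrichment 2.86, 3.13, 3.17 and 3.10 in the same order. The median pileup over all regions was 5.00 to 5.11. The regions touched adult peaks, and reads from satellite copies elsewhere can be placed there. The fifth region was chr15:75085485-75086389, and the sixth chr10:3116088-3117122, with −log10 p of 50.8 in control P1, 57.5 in Alb-D2KO P1, 29.8 in control P5 and 24.3 in Alb-D2KO P5. The other 4 of the first 10 lay between chr11:3149590 and chr11:3180856 in Sfi1, a gene for a centrosome protein that has partial copies in the mouse genome, with a lowest −log10 p of 23.2 in each.

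The longest regions were of another kind. Of the 10 longest (5494 to 7046 bp), 7 had their middle between genes, and 3 were on chromosome 14. The longest, chr14:111021506-111028551, was 269880 bp from the nearest coding gene start and had −log10 p of 1.83 in control P1, 1.99 in Alb-D2KO P1, 1.73 in control P5 and 1.79 in Alb-D2KO P5. The next, chr1:49556552-49563514, lay 1340614 bp from a coding gene start with values of 1.99, 1.91, 2.05 and 2.43. Those in genes were in an exon of Sfi1 (chr11:3131670-3137727), in an exon of the pseudogene Mup-ps26 (chr4:60476681-60482390) and in an intron of Trpm8 (chr1:88304693-88310325), which encodes the cold-sensing ion channel. Of these 10, only the Sfi1 region exceeded a −log10 p of 2 in all 4 lists.

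At the length limit, 59 regions measured exactly 500 bp and 70 runs of 499 bp were left out. The first by position on each side were chr1:8844318-8844817, chr1:27711807-27712306 and chr1:29720516-29721015 just inside, and chr1:110532447-110532945, chr1:112635229-112635727 and chr2:17057176-17057674 just outside. The 59745 runs under 500 bp were more numerous than the regions kept, which were 36.6% of all 94274 runs.

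Neonatal-only regions lay mostly between genes and far from gene starts. By bases, 80.5% was intergenic, 17.4% intronic and 2.14% exonic, against 52.8%, 42.2% and 4.96% of the autosomes. The all-six regions were 72.6% intergenic and the adult-only regions 53.4%, and the neonatal lists as a whole 73.5% to 74.2%. The median distance from the middle of a region to the nearest start of a protein-coding gene was 433 kb, compared with 180 kb for all-six regions, 92.9 kb for adult-only regions and 76.8 kb for positions spaced every 10 kb along the autosomes. Over 100 kb from any coding gene start lay 77.2% of the regions and 44.5% of the spaced positions. The intronic share depended on how regions were drawn, and was 32.9% for the 434 regions whose neonatal peaks all passed a −log10 p of 2 and 31.6% for the 11379 whole control P1 peaks that overlapped the 3 other neonatal lists and no adult peak.

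**Figure D2:**
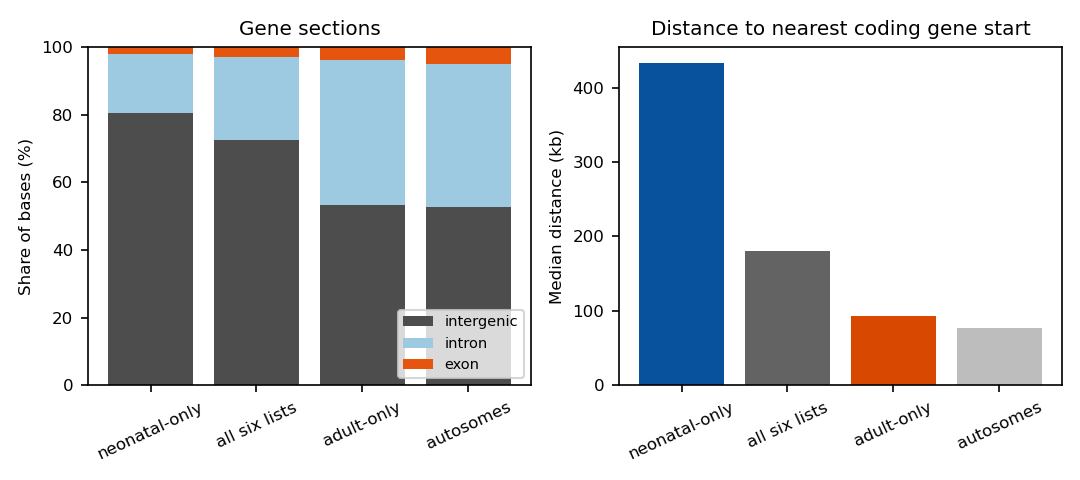
Left, share of bases (%) between genes, in introns and in exons of GENCODE M21 genes for neonatal-only, all-six and adult-only regions and for the autosomes. Right, median distance (kb) to the nearest protein-coding gene start, where bars run from 433 kb for neonatal-only regions to 76.8 kb for positions spaced along the autosomes.

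The regions were poor in G and C. GC content was 35.1%, against 38.4% in all-six regions, 41.9% in adult-only regions and 41.9% on the autosomes, and 90% of single regions fell between 27.9% and 43.6%. There were 4.26 CG pairs per kb, compared with 7.18 in all-six, 8.54 in adult-only regions and 8.51 on the autosomes, and the ratio of observed to expected CG pairs was 0.138, 0.194, 0.195 and 0.194. Repeat-masked bases made up 38.4% of neonatal-only regions, 67.6% of all-six regions, 37.3% of adult-only regions and 33.5% of the autosomes. The share of regions at least 90% repeat-masked was 10.6% among neonatal-only, 45.8% among all-six and 14.4% among adult-only regions. Among 500-bp windows of the autosomes it was 9.85%, near the neonatal-only share. GC content can itself set how many fragments a library holds, and its part in the difference between the ages was not tested.

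Thyroid hormone receptors bind best to a direct repeat of AGGTCA with 4 bases between. The letters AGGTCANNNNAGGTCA, searched on both strands, were present in the middle 500 bp of 1 neonatal-only region of 34529, of 2 all-six regions, of 2 adult-only regions and of 0.0198% of all 500-bp windows of the autosomes. The 6 letters AGGTCA alone, which is part of the longer motif, was in 20.1% of neonatal-only (Wilson interval 19.7 to 20.5), 24.8% of all-six, 24.5% of adult-only middles and 25.7% of autosomal windows. A letter match is not a binding site.

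The regions were unevenly spread over the chromosomes. Chromosome 14 had the largest share of its length in neonatal-only regions (2.82%), followed by 16 (2.26%), 7 (1.90%), 1 (1.83%) and 17 (1.82%). Chromosomes 11 (0.378%), 13 (0.465%), 9 (0.539%) and 19 (0.559%) had the smallest. The same 5 chromosomes led by number of regions per Mb. The order was different for adult-only regions, which were highest on chromosome 8 (1.21%) and 13 (1.13%), and for all-six regions, highest on 7 (4.28%) and 13 (3.77%). On chromosomes 14, 15 and 16, 38.6%, 39.4% and 39.2% of the bases covered in all neonatal lists were absent from both adult lists, against 11.5% on chromosome 13. On these 4 chromosomes 9.33%, 5.94%, 7.49% and 6.24% of the bases were covered in all neonatal lists.

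**Figure D3:**
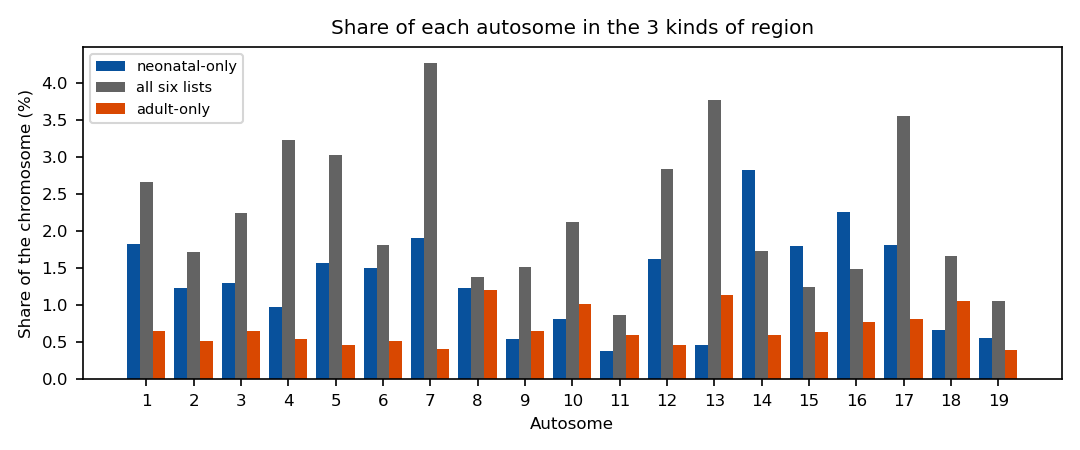
Share of each of the 19 autosomes (%, y axis) in neonatal-only, all-six and adult-only regions. The neonatal-only bar is tallest on chromosome 14 (2.82%), and it exceeds the all-six bar only on chromosomes 14, 15 and 16.

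At finer scale the regions were gathered in few windows. Of 2454 full windows of 1 Mb, 49.6% held none, the median held 0.507 kb, and 132 windows (5.34%) held 50% of all region bases. The 5 densest windows were on chromosomes 14 and 16. The first, chr14:110000001-111000000, had 227 kb in 189 regions. It holds 1 coding gene start, of Slitrk6, a gene for a membrane protein of neurons and the inner ear. In it, 837 kb was covered in control P1, 864 kb in Alb-D2KO P1, 856 kb in control P5 and 855 kb in Alb-D2KO P5, against 347 kb in control adult and 317 kb in Alb-D2KO adult. Next came chr16:82000001-83000000 (221 kb, with the start of the predicted gene Gm21833), chr14:112000001-113000000 (211 kb), chr14:109000001-110000000 (206 kb) and chr16:61000001-62000000 (201 kb), and the last 3 held no coding gene start. Over these 5 windows adult-only regions came to 1.11 kb in 1 window and to 0 in the others. Neighbouring regions were a median of 6.57 kb apart, and 42.2% of gaps were under 5 kb.

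The 10 genes with the most region bases were long, and a ranking by bases favours long genes. The first was Lrrc4c, which encodes a postsynaptic adhesion protein (chr2:96318169-97631666), with 158 kb in 160 regions, or 12.0% of the gene. Lrp1b, encoding a large receptor of the LDL receptor family, followed with 156 kb in 171 regions, and then came the cadherin genes Cdh12 (145 kb, 12.7% of the gene) and Cdh18 (115 kb, 12.5%). The others of the first 10 were Csmd3 (95.4 kb), Cadm2 (77.4 kb), Adgrb3 (74.2 kb), Klhl1 (69.7 kb), Galnt13 (68.1 kb) and Grm7 (61.6 kb), which encodes a glutamate receptor. In none of the 10 did a region reach the gene start. Lrrc4c was covered over 70.2% of its length in control P1, 72.7% in Alb-D2KO P1, 71.2% in control P5 and 73.1% in Alb-D2KO P5, and over 28.2% in control adult and 29.1% in Alb-D2KO adult. Cdh12 had 67.6%, 70.8%, 68.3% and 70.0% in the same neonatal order and 26.3% and 21.5% in the adult.

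Of 20807 autosomal protein-coding genes, 1184 had at least 1 base in a region (5.69%) and 158 had their start in one (0.759%). Coding genes had 0.486% of their bases in neonatal-only regions, 1.02% in all-six and 0.649% in adult-only regions. By the share of the gene covered, 1756 genes (8.44%) stood higher in all 4 neonatal lists than in both adult lists and 1996 (9.59%) lower in all 4, while 10384 were covered in no list. Since the regions rest on the same peaks, the counts for the gene groups below are descriptions beside these backgrounds.

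Receptors of smell, pheromones and taste made up most gene starts. Of the 158 genes, 82 were olfactory receptors (of 1128, or 7.27%) and 28 were vomeronasal receptors (of 327, or 8.56%). Any region base was found in 29.6% of the olfactory and 38.5% of the vomeronasal receptor genes. The olfactory receptor genes were covered over 42.7% of their bases in control P1, 43.9% in Alb-D2KO P1, 40.8% in control P5 and 43.1% in Alb-D2KO P5, and over 25.6% in control adult and 23.6% in Alb-D2KO adult. For the vomeronasal receptors these values were 65.5%, 66.2%, 64.3%, 65.0%, 46.1% and 44.8%. Both families are silent outside sensory neurons and lie in clusters of similar copies, so that a read may fit several members.

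The genes with the largest share of their length in regions, among those of at least 5 kb, were all olfactory receptors. Olfr867 (chr9:20050955-20057562) had 5.00 kb or 75.7% of the gene in 2 regions. It was covered over its whole length in all 4 neonatal lists, over 18.9% in control adult and over 16.0% in Alb-D2KO adult. Olfr1487 followed with 74.9%, covered over 83.9% in control P1, 94.0% in Alb-D2KO P1, 100% in both P5 lists, 0% in control adult and 3.53% in Alb-D2KO adult. The others were Olfr131 (65.0%), Olfr1110 (62.3%), Olfr847 (59.996%), Olfr1195 (56.7%), Olfr1107 (54.7%), Olfr731 (51.8%), Olfr1079 (51.5%) and Olfr1090 (51.2%).

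The longest region over a gene start was that of Vmn2r70, at 5077 bp (chr7:85565921-85570997), of which the middle is printed above. The gene was covered over 100% in both P1 lists, 96.7% in control P5 and 100% in Alb-D2KO P5, but over 48.6% and 36.6% in control and Alb-D2KO adult. Then came Olfr1109 and Olfr1289 (3648 bp each), Olfr1093 (3633 bp), Olfr731 (3433 bp), Olfr153 (3375 bp), Olfr131 (3272 bp), Olfr1173 (3075 bp), Skint4 (2703 bp) and Gm13762 (2697 bp). The Skint4 gene, of which 1.71% lay in a region, stood higher in each Alb-D2KO list than in all control lists. It was covered over 27.1% in control P1, 64.1% in Alb-D2KO P1, 17.3% in control P5, 87.6% in Alb-D2KO P5, 10.1% in control adult and 61.7% in Alb-D2KO adult. This order was noticed only after the values were seen. How many other genes show it was not counted, and an effect of genotype was not tested. Of the 158 genes, 35 were in no list, and 9 of these were bitter taste receptors (Tas2r, of 35 autosomal members), a group noticed only after the values were seen.

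Families with genes for carrier proteins and detoxification in the adult liver held regions as well, unevenly among their members. Among the major urinary protein (Mup) genes on chromosome 4, 11 of 22 had a region base (50%) and 7 had their start in a region (31.8%), namely Mup1, Mup10, Mup14, Mup15, Mup16, Mup19 and Mup22. The Mup genes were covered over 36.6% of their bases in control P1, 42.1% in Alb-D2KO P1, 46.6% in control P5 and 49.5% in Alb-D2KO P5, against 15.6% in control adult and 14.4% in Alb-D2KO adult. In 17 of 22 every neonatal value was above both adult values, and 15 had no adult peak at all. How many of all coding genes had no adult peak was not counted. Since 10384 of 20807 were covered in no list, the count of 15 is not read as particular to Mup genes. Mup1 (chr4:60498012-60501960) was covered over 71.7% in control P1, 80.1% in Alb-D2KO P1, 60.1% in control P5 and 73.0% in Alb-D2KO P5 and in neither adult list. Mup9 held the largest share of region bases (85.8%), with 100% in the first 3 neonatal lists and 85.8% in Alb-D2KO P5. There were exceptions, since Mup4 was covered in no neonatal list and over 13.1% and 22.3% in the adult lists, and Mup21 over 72.3% to 100% in every list. The members are near-identical copies, and how reads were shared among them is not given in the sources used here, so values of single Mup genes are uncertain.

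Cytochrome P450 genes, whose enzymes oxidize steroids and drugs, had region bases in 20 of 100 members, and the starts of Cyp2c39 and Cyp2c67 lay in regions. Over all 100, every neonatal value was above both adult values in 28 and below both in 12, beside 8.44% and 9.59% of all coding genes. All but 3 of the 20 were members of the Cyp2c and Cyp3a clusters, a division made after the values were seen. The 15 Cyp2c genes on chromosome 19 were covered over 52.2% of their bases in control P1, 57.1% in Alb-D2KO P1, 57.9% in control P5, 58.6% in Alb-D2KO P5, 31.7% in control adult and 25.7% in Alb-D2KO adult. The 9 Cyp3a genes had 52.7%, 53.2%, 45.1%, 42.6%, 15.4% and 17.8% in the same order. In the other 76 P450 genes the 6 values lay between 13.2% and 14.3%. Cyp2c67 (chr19:39608842-39649051) had 31.0% of its bases in 10 regions, with coverage of 84.3%, 90.5%, 92.3% and 82.8% in the neonatal lists and of 24.7% and 19.1% in the adult. Cyp3a11, the main Cyp3a enzyme of the adult mouse liver, was covered over 52.2% in control P1, 68.9% in Alb-D2KO P1, 46.0% in control P5, 56.6% in Alb-D2KO P5, 0% in control adult and 4.89% in Alb-D2KO adult. Cyp3a16, the form used in the fetal liver, overlapped between the ages, with 53.6%, 68.0%, 47.0% and 38.5% in the neonatal and 40.4% and 38.4% in the adult lists.

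UDP-glucuronosyltransferase genes, whose enzymes attach glucuronic acid to bilirubin and drugs, had a region base in 9 of 22 members (40.9%) and no start in a region. In 18 of 22 every neonatal value was above both adult values. The group was covered over 22.0% in control P1, 25.1% in Alb-D2KO P1, 23.6% in control P5, 25.1% in Alb-D2KO P5, 8.42% in control adult and 7.54% in Alb-D2KO adult. The 9 Ugt1a genes share their last exons and overlap, and so their values repeat each other. Ugt2b5, which does not, was covered over 43.7%, 29.9%, 25.5% and 48.6% in the neonatal lists and in neither adult list. No run of 500 bp in it was covered in all 4 neonatal lists, and so it held no region.

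**Figure D4:**
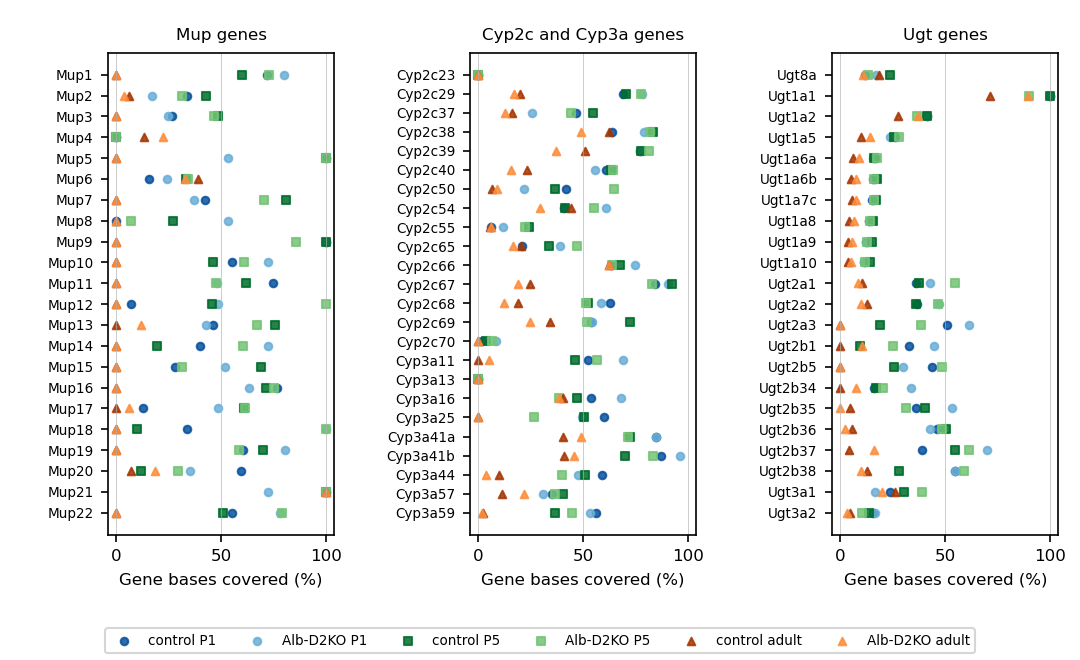
Share of each gene's bases covered by a peak (%, x axis) in the 6 lists for all autosomal Mup, Cyp2c and Cyp3a, and Ugt genes (y axis), where circles stand for P1, squares for P5 and triangles for adult lists. Triangles lie at or near 0% for most Mup genes and to the left of the other symbols in most Cyp2c, Cyp3a and Ugt genes, and points with equal values hide each other.

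Solute carrier genes went the other way as a list. They were covered over 4.46% to 5.31% of their bases in the neonatal and 7.13% and 6.56% in the adult lists, and 46 of 358 (12.8%) were lower in all 4 neonatal lists than in both adult lists while 21 (5.87%) were higher. A region base was found in 11 (3.07%, against 5.69% of all genes), and 5 of these, singled out after their values were seen, were neighbours on chromosome 19, the organic anion transporter genes Slc22a26 to Slc22a30. Slc22a30 had 12.4 kb in 8 regions and was covered over 55.4% in control P1, 48.8% in Alb-D2KO P1, 68.0% in control P5, 61.5% in Alb-D2KO P5, 3.97% in control adult and 4.46% in Alb-D2KO adult. Slc22a28 had 11.5 kb in 10 regions, with 62.6%, 65.8%, 66.8%, 64.4%, 15.9% and 10.3%.

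In a list of 30 genes typical of adult hepatocytes, 3 had a region base (10%) and none its start in a region. They were Cyp2c29 (10.02 kb in 7 regions), Cyp3a11 (1.84 kb in 3) and Slco1b2 (1.13 kb in 1), which encodes a bile acid and drug transporter. Slco1b2 was covered over 31.1% in both P1 lists, 22.7% in control P5, 20.2% in Alb-D2KO P5 and in neither adult list. Together the 30 genes were covered over 13.2% to 15.6% of their bases in the neonatal and 2.56% and 2.61% in the adult lists. This rests on few members, since in 5 of 30 (Cyp3a11, Cyp2c29, Mup3, Cps1 and Slco1b2) all neonatal values were above both adult values and 16, among them Apoa1, Cyp2e1, Cyp7a1, Pck1 and Ttr, were covered in no list. Alb, whose promoter drives the deletion, was covered over 5.83% in Alb-D2KO P1 and 1.33% in Alb-D2KO P5 and in no other list.

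Lists for other cell types and programs of the newborn liver are small, and with 5.69% of all coding genes holding a region base their counts stand near that background and are read no further. None of 24 erythroid genes and none of 16 white blood cell genes had a base in a region. Their bases were covered over 2.07% to 4.46% and 0.299% to 0.623% in the neonatal and over 5.52% to 6.18% and 1.24% to 1.37% in the adult lists. In the erythroid list 1 long gene weighs heavily. Kit (81.8 kb) was covered over 0.321% to 1.48% in the neonatal lists and over 26.1% and 28.6% in the adult lists. Of the 24 erythroid genes, 2 were covered less in all 4 neonatal lists than in both adult lists and 1 more. Of 16 fetal liver genes, which include Afp and Igf2, 1 had a region base (Cyp3a16, 0.607 kb), and 4 were covered less in all 4 neonatal lists than in both adult lists. None of 17 liver transcription factor genes did, and 11 of them were covered in no list. Of 20 genes for H3K9 and DNA methylation enzymes and their partners, 1 did, Kdm4c, a demethylase, with 0.388 kb. The lists bear on the mark only, since no expression was measured here, and the tissue label could not be checked by expression.

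Of 14 thyroid hormone genes, 1 had a region base. In this small list 3 were covered more in all 4 neonatal lists than in both adult lists, 0 less, and 8 were covered in no list. Of all coding genes, 8.44% were covered more and 9.59% less. Thrb, the main thyroid hormone receptor of the liver (chr14:17660261-18038090), had 2.63 kb in 1 region and no region at its start. It was covered over 3.52% in control P1, 4.66% in Alb-D2KO P1, 5.02% in control P5, 6.33% in Alb-D2KO P5, 0.565% in control adult and 0.778% in Alb-D2KO adult. Dio2 (chr12:90724552-90738438), the gene deleted in Alb-D2KO liver, had no region base, and was covered over 4.59% in control P1 and in no other list. H3K9me3 peaks do not measure the deletion.

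Other clustered families divided. Zfp-named zinc finger genes, classic targets of H3K9me3, had region bases in 9 of 385 members (2.34%) and 1 start in a region, that of Zfp352. They had 14.5% of their bases in all-six regions and 0.463% in neonatal-only regions, and 156 (40.5%) were covered less in all 4 neonatal lists than in both adult lists, the opposite of the receptor families. Clustered protocadherins, neuronal adhesion genes with 57 members listed, had region bases in 16 (28.1%), and 35 stood higher in all 4 neonatal lists than in both adult lists. In part of them, such as the Pcdha genes, alternative first exons share a common downstream part, so that these members overlap. The only start in a region was that of Pcdhb14, which does not overlap its neighbours Pcdhb13 and Pcdhb15. Beta-defensins had 2 of 42, with the start of Defb18 in a region, serpins 3 of 60 and collagens 3 of 43. None of 39 Hox genes and none of 53 keratin genes had a region base. Of 106 genes matched by the name pattern for histones, 1 did, H2-M2, which is a histocompatibility gene and not a histone.

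**Figure D5:**
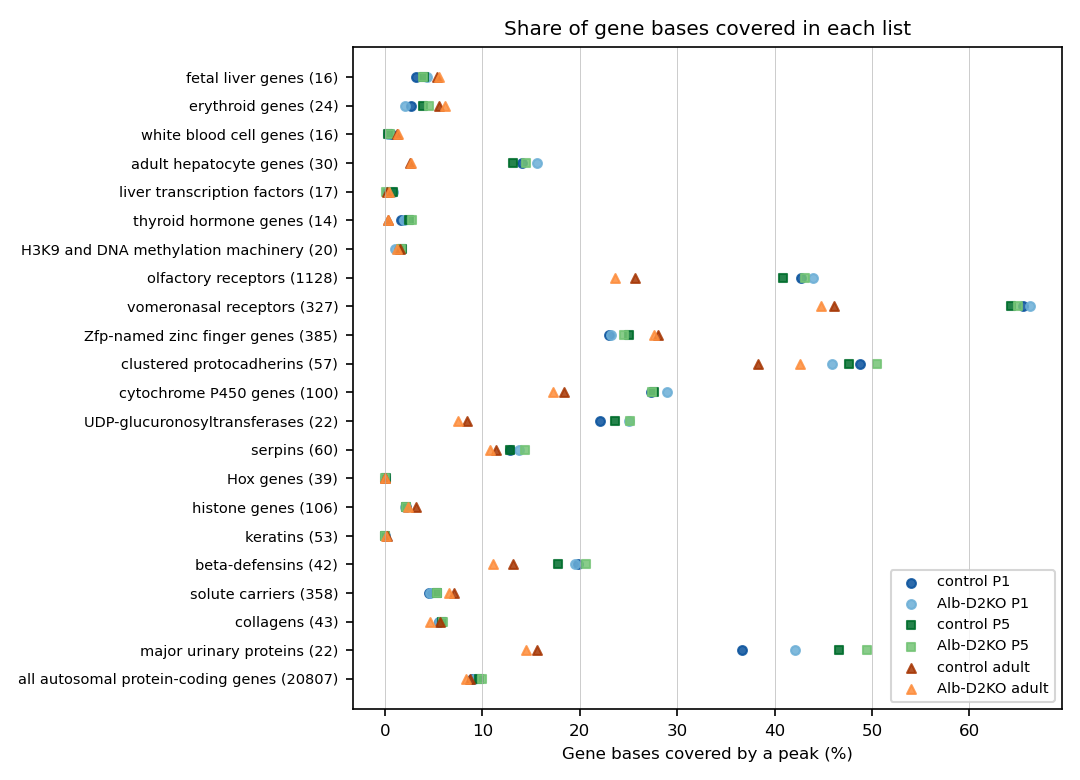
Share of gene bases covered by a peak (%, x axis) in each of the 6 lists for the gene lists (y axis, number of genes in brackets), where circles stand for P1, squares for P5 and triangles for adult lists. Adult values lie below all neonatal values for the sensory receptor, urinary protein, P450 and glucuronosyltransferase genes and for adult hepatocyte genes, among others. They lie above them for Zfp-named and solute carrier genes and the small fetal liver, erythroid and white blood cell lists, among others. The erythroid list holds Kit, covered over 26.1% and 28.6% in the adult lists.

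Starts of other gene types lay in regions as follows. Of 1789 unprocessed pseudogenes, which arise by gene duplication, 74 had their start in a region (4.14%), compared with 99 of 8924 processed pseudogenes (1.11%) and 14 of 5209 long intergenic noncoding RNA genes (0.269%). Small nuclear RNA genes, which have many copies, had 20 of 1292 (1.55%) and small nucleolar RNA genes 19 of 1442 (1.32%). The share of protein-coding genes was 0.759%.

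The last question was whether the regions also differed between genotypes. The study's comparison lists hold peaks for which the Alb-D2KO library was set against its control of equal age, and so show more H3K9me3 in Alb-D2KO only, and they were made from the same libraries that chose the regions. With a −log10 p above 2, a P1 comparison peak lay in 688 of the 34529 regions (1.99%, Wilson interval 1.85 to 2.15), against 3.38% of all regions covered in at least 1 list. A P5 comparison peak lay in 649 (1.88%, interval 1.74 to 2.03), against 3.08%, and an adult one in 168 (0.487%, interval 0.418 to 0.566), against 4.87%. All-six regions had 4.52%, 3.96% and 4.72%. The shares depended on the score limit. Among the 434 regions with all neonatal peaks above 2 the P1, P5 and adult lists gave 8.53%, 7.14% and 10.6%. Each was above the share of all regions covered in at least 1 list, but that background has no score limit. A background with the same limit was not counted. The regions differ in length from those covered in any list, and by bases the shares were 1.13%, 0.982% and 0.188% for neonatal-only regions and 0.881%, 0.822% and 1.41% for regions covered in any list, so that the P1 and P5 shares stood on the other side of the background by this measure. The way the regions were chosen asks for a peak in both genotypes at both neonatal ages and in neither adult list, which bears on all of these shares.

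A comparison peak was present at both P1 and P5 in 37 regions, and 33083 had none at any age. The same counts were not made for all regions covered in at least 1 list, so neither can be read as high or low. The longest of the 37 was chr11:3142855-3147251 in Sfi1 (4397 bp), with input-called −log10 p of 17.5 in control P1, 30.7 in Alb-D2KO P1, 23.2 in control P5 and 10.6 in Alb-D2KO P5. The second, chr14:106896298-106898161, lay between genes with 2.28, 2.93, 1.77 and 1.99. The 37 were not spread evenly. Several lay close together between genes, from chr3:93775329 to chr3:93868044, and some of these had equal scores in a list. Others overlapped the pseudogene Mup-ps19 (chr4:61956762-61957374), Olfr832 (chr9:18939288-18940433) and an intron of Adgrb3 (chr1:25438278-25438817). Of the 37, 6 also had an adult comparison peak.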

How the data were processed

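H3K9me3 ChIP-seq of whole mouse liver was compared over 6 H3K9me3 libraries and their 6 inputs. According to the study's methods, the authors aligned reads to mm10 with BWA and called broad peaks with MACS2 at p below 0.05 in Partek. The methods describe more than 1 pooled P1 sample and repeat sequencing without saying whether reads were merged, and here 1 list stands for 1 library. The deposited lists give for each peak the pileup (fragment coverage, a signal whose scaling is not stated), the −log10 p-value and −log10 q-value, and the fold enrichment, a ratio to input. The deposited comparison lists hold the authors' calls of Alb-D2KO over control. Their positions with −log10 p above 2 were used and their values are not reported. No read counts were used, and depth is unknown.

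Intervals were intersected and subtracted with numpy 2.4.6 and pandas 2.3.3 in Python 3.11.15, Wilson intervals came from scipy 1.17.1, and figures were drawn with matplotlib 3.10.9. The choice of regions and the interval overlaps were tested on simulated data. Sections followed GENCODE M21 (exon before intron), with a gene running from its first to its last base, and bases and soft-masking came from RefSeq GRCm38.p6. The regions and gene lists were chosen with earlier results of these data known. Named were the 10 longest and 10 highest-scoring regions, the 10 genes with most region bases or the largest share (5 kb or longer), genes with a start in a region that are in a list (olfactory and vomeronasal receptors as counts) or among the 10 longest there, the 5 densest windows, Dio2, Alb and list genes. The Cyp2c, Cyp3a, Ugt1a, Ugt2b, Slc22a and Tas2r groups, and other single genes and regions, were picked after their values were seen.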

Additional observations from a re-analysis of the deposited data

Results flagged for a closer look

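The X chromosome was outside the autosomal regions described above and is given here because it held more of the same kind of region than any autosome. By the same rule 6877 neonatal-only regions (8.06 Mb) lay on it, or 4.71% of the chromosome, against 2.82% on chromosome 14, the highest autosome. Adult-only regions were 55, or 0.0278% of the X chromosome, and all-six regions 1398, or 1.18%. Peaks covered 26.7% of it in control P1, 23.7% in Alb-D2KO P1, 31.6% in control P5 and 31.1% in Alb-D2KO P5, but 5.76% in control adult and 5.94% in Alb-D2KO adult. The sex of the animals behind each library is not given in the labels.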

How the results depend on the processing

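Of 62 alternative values, 22 stayed within the limits set for calling a value equal and 40 moved. Counts and lengths were held to a fold range, and shares to the much narrower Wilson interval over 34529 regions taken as independent. So 49349 regions in place of 34529 counted as equal, but a repeat-masked share of 39.3% in place of 38.4% as moved. The tally is therefore no measure of how stable the results are. The number and total length of the regions (34529, 33.4 Mb) depended most on the peak limit. With neonatal peaks of −log10 p above 2 they were 434 and 0.442 Mb, and with this limit in all lists 608 and 2.26 Mb. With a shortest length of 200 bp there were 63968 regions, with 1000 bp 11200 (16.7 Mb) and with 2000 bp 1485 (3.83 Mb). Adult peaks widened by 1000 bp left 5108 (5.06 Mb), and whole control P1 peaks numbered 11379 (14.0 Mb). Without the control adult list there were 55925 (62.2 Mb), and without the Alb-D2KO adult list 55084 (61.2 Mb). Leaving out 1 neonatal list gave 47633 to 49349. The intergenic share was 59.1% above a score of 2 and 66.3% for whole peaks. The intronic share was 32.9%, 16.4% at 2000 bp and 31.6% for whole peaks, and the exonic share 8.04% above 2 and 2.92% at 2000 bp. An adult peak touched 95.9%, 77.8% and 0.158% for the score limit, 2000 bp and whole peaks. In this order P1 comparison peaks were present in 8.53%, 2.96% and 2.28%, those of P5 in 7.14%, 3.37% and 2.25%, and adult ones in 10.6%, 0.741% and 0.220%. Genes numbered 1184 with any base and 429 with a start within 1000 bp, in place of 158. Of the 5 densest windows, 3 lay in the 5 densest of 5 Mb. Repeat-masked bases were 39.3% in the middle 500 bp. The causes were not tested.

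No paired analysis was possible because the regions were chosen by peaks of all 6 lists and no result comes from a test. The depth of the libraries is unknown. The adult lists hold no peak with a pileup under 5, and signal below that was not seen here. Pools of 3 livers and single livers cannot be told apart from age. Values in satellites and near-identical gene copies are uncertain.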
